A study of Mus musculus with 22 samples.

Results

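The 6 genes described here, Gipr, Pla2g7, Cdk18, Megf11, Rasa4 and 1700071M16Rik, were selected on the kainate minus sham change in their read counts, which was larger in NeuN+ than in NeuN- nuclei of the mouse hippocampus. They are 6 of the 53379 genes in the count file, and all 6 were among the 40714 genes with enough reads to be tested. The rule gave no threshold, and every kainate-sham value of these genes below is the kind of value that chose them, so it is a description without a test. The samples came from adult male C57/BL6N mice in all groups. Kainate, an agonist of ionotropic glutamate receptors that starts status epilepticus, was given by injection over the hippocampus of the right side, and saline was given to sham mice. Tissue was taken from the left, contralateral hippocampus (CLH) 24 h later, although 1 protocol label names the right side. Nuclei were sorted by NeuN, a neuronal nuclear protein encoded by Rbfox3, into NeuN+ (neurons) and NeuN- (here called glia). By the paper, NeuN- nuclei may include a minor share of other cells, such as endothelial cells, pericytes and some neurons. There were 8 mice per treatment, pooled before sorting, and every kainate mouse had convulsive seizures. The 11 RNA libraries were 3 kainate NeuN+, 3 sham NeuN+, 3 kainate NeuN- and 2 sham NeuN-, and the 11 bisulfite samples were not analysed here.

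The proteins belong to unrelated families. Gipr is the receptor for the incretin hormone GIP and signals through cyclic AMP, and Pla2g7 is a secreted phospholipase that inactivates platelet-activating factor (PAF) and oxidized phospholipids. Cdk18 is a cyclin-dependent kinase of the PCTAIRE group, Megf11 is a membrane protein with EGF-like repeats known for the spacing of retinal neurons, and Rasa4 is a calcium-responsive GTPase-activating protein that switches Ras off. 1700071M16Rik is annotated as an antisense gene.

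In the mm10 (GRCm38) annotation, Gipr lies at chr7:19156061-19166127 on the minus strand, Cdk18 at chr1:132112237-132139684 on the minus strand, Megf11 at chr9:64385626-64709205 on the plus strand and Rasa4 at chr5:136083916-136111860 on the plus strand. Pla2g7 lies at chr17:43568098-43612201 on the plus strand, and 1700071M16Rik, at chr17:43588340-43592442 on the minus strand, lies inside its span. These genes shared 319 exon bases, 10.98% of the exon bases of Pla2g7 and 11.07% of those of 1700071M16Rik. The shared stretch includes the first coding exon of Pla2g7, which is shown because reads from it belong to both annotations (plus strand, chr17:43588598-43588703, start codon in capitals).
Pla2g7 coding exon inside 1700071M16Rik: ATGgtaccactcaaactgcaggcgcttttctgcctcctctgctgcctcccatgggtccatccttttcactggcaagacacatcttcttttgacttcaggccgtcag
The library kit does not keep strand, so reads from these bases cannot be assigned to one gene by direction. The paper counted reads that mapped uniquely to a gene, and how it treated reads in bases shared by both genes is not stated. Whether the counts of the pair depend on each other was not tested. Smaller overlaps with opposite-strand genes were annotated for Cdk18 (Gm29629, 86 shared exon bases) and Rasa4 (Gm15701, 182 shared exon bases). Mir7035 shares 82 exon bases with Rasa4 on the same strand.

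RefSeq gene starts were given for 4 of the 6 genes, Pla2g7, Cdk18, Rasa4 and 1700071M16Rik, and not for Gipr and Megf11. Their 250 bases before the start are shown because these genes differed in the same direction, with matches to 6 motifs in capitals (RefSeq, GRCm38.p6, each on the strand of its gene). They lie at chr17:43568201-43568450 (plus), chr1:132139686-132139935 (minus), chr5:136083666-136083915 (plus) and chr17:43591510-43591759 (minus). The RefSeq starts of Pla2g7 and 1700071M16Rik differ from the ends of the spans given above, and their windows lie inside those spans.
Pla2g7: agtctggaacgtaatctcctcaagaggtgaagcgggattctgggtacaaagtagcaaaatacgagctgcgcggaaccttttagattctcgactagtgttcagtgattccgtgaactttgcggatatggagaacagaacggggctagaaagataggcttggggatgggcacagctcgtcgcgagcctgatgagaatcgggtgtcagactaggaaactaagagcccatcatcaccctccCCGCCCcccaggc
Cdk18: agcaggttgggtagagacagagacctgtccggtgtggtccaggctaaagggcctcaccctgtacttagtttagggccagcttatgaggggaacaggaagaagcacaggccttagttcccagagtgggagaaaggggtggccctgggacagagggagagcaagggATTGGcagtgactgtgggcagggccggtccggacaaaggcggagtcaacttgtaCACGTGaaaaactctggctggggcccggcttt
Rasa4: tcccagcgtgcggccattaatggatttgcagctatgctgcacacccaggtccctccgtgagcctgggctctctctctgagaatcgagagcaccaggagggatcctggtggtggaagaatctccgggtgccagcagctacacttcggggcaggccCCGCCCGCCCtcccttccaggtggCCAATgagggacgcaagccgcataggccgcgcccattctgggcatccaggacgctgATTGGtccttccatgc
1700071M16Rik: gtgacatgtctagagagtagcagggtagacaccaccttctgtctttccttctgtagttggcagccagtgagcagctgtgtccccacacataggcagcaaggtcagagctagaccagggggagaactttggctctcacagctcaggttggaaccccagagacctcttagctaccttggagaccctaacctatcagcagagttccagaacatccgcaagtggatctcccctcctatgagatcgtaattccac
The motifs, searched on both strands, were AP-1 (TGANTCA), the cyclic AMP response element (CRE, TGACGTCA), the E-box (CACGTG), the GC box (GGGCGG), the CCAAT box (CCAAT) and EGR (GCGTGGGCG). Pla2g7 held 1 GC box. Rasa4 held 2 GC boxes, which overlap each other, and 2 CCAAT boxes, and Cdk18 held 1 CCAAT box and 1 E-box. None of the 6 motifs was found in the 1700071M16Rik window, and none of the 4 windows held the AP-1, CRE or EGR letters. Among the 32851 RefSeq windows of this length, 32.7% held the GC box, 33.9% the CCAAT box, 6.02% the E-box, 6.75% the AP-1 letters, 1.55% the CRE letters and 0.536% the EGR letters. The windows of Pla2g7, Cdk18 and Rasa4 held 14, 6 and 13 CpG sites and that of 1700071M16Rik held 2, against a median of 6 over all windows. No motif of the 6 was held by all 4 windows.

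Total counts per library ranged from 12058875 to 45428465. The library of kainate NeuN- replicate 2 and that of sham NeuN- replicate 1 had the lowest input, 0.05 ng of RNA, and 15 cycles of PCR, against 1 ng and 10 cycles for all others. All 6 neuronal markers were called higher in NeuN+ nuclei (edgeR quasi-likelihood test, FDR below 0.25). Their summed level was 3413 to 7591 CPM (counts scaled to a common library total, with TMM factors) in NeuN+ libraries and 599 to 922 CPM in NeuN- libraries. All markers of astrocytes, oligodendrocytes, their precursors, microglia and pericytes were called lower in NeuN+ nuclei. The NeuN- libraries differed widely in glial signal. Oligodendrocyte markers summed to 27044, 11531 and 4887 CPM in kainate NeuN- replicates 1, 2 and 3 and to 38230 and 8548 CPM in sham NeuN- replicates 1 and 3.

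In neurons, each of the 6 genes was higher in every kainate library than in every sham library. By the rule this separation describes the choice of genes, and 4.26% of all genes tested showed it. The log2 fold changes ran from 1.58 for Pla2g7 to 3.98 for Gipr with a median of 2.09, against a median of -0.01 over all genes tested. Among the 18572 genes with a mean log2 CPM of at least 1, Gipr ranked 6 from the highest in this change, Cdk18 40, Megf11 57, Rasa4 105, 1700071M16Rik 116 and Pla2g7 197.

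Gipr had the steepest difference. In sham neurons it was low and uniform, at 5.84, 5.86 and 6.51 CPM, and in kainate neurons it was at 80.1, 38.1 and 170 CPM in replicates 1, 2 and 3. The kainate mean was 15.8 times the sham mean, with a log2 fold change of 3.98 (SE 0.57), and of 3.28 without kainate replicate 3. The kainate libraries themselves differed 4.46-fold, the widest spread of the 6 genes in that group. In glia Gipr was at 27.8, 24.5 and 53.8 CPM after kainate and at 73.7 and 33.2 CPM in sham, and these groups overlapped. Ordered by mean level, kainate neurons (96.0 CPM) came first, then sham glia (53.5), kainate glia (35.4) and sham neurons (6.07), and the first 3 overlapped in their libraries.

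Cdk18 was measured at 189, 285 and 215 CPM in kainate neurons and at 51.8, 33.4 and 41.3 CPM in sham neurons. The kainate mean was 5.45 times the sham mean (log2 fold change 2.45, SE 0.42). Glia gave 127, 144 and 82.1 CPM after kainate and 215 and 86.6 CPM in sham, and these groups overlapped. Kainate neurons exceeded every kainate glia library but overlapped sham glia.

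Megf11 showed the narrowest replicate spread in sham neurons after Gipr, at 44.0, 39.1 and 34.2 CPM, and reached 147, 210 and 203 CPM in kainate neurons. Its kainate mean was 4.76 times the sham mean (log2 fold change 2.25, SE 0.36). Every kainate neuron library was above every other library of the series for this gene. In glia the values were 72.9, 67.2 and 58.6 CPM after kainate and 124 and 58.8 CPM in sham, and the groups overlapped.

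Rasa4 was at 88.4, 60.9 and 84.5 CPM in kainate neurons and at 26.3, 16.02 and 19.5 CPM in sham neurons, a 3.78-fold difference of the means (log2 fold change 1.92, SE 0.33). All 3 kainate neuron libraries were above all other libraries. In glia the direction was the opposite in every library, with 28.0, 32.6 and 29.3 CPM after kainate and 54.4 and 41.4 CPM in sham.

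1700071M16Rik was at 21.8, 19.6 and 39.1 CPM in kainate neurons and at 5.51, 5.94 and 10.3 CPM in sham neurons, a 3.71-fold difference of the means (log2 fold change 1.89, SE 0.39). Glia were at 7.71, 11.8 and 11.5 CPM after kainate and at 26.3 and 24.1 CPM in sham, again without overlap and in the opposite direction. The levels of kainate neurons and sham glia overlapped, as did those of sham neurons and kainate glia.

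Pla2g7 was the only one of the 6 with its highest mean level in sham glia. It was at 62.5, 35.9 and 50.1 CPM in kainate neurons and at 23.6, 8.76 and 17.6 CPM in sham neurons, a 2.98-fold difference of the means (log2 fold change 1.58, SE 0.72). In glia it was at 132, 28.1 and 15.7 CPM after kainate and at 322 and 72.1 CPM in sham. The libraries of replicate 1 were the highest of each glial group, as they were for the oligodendrocyte markers above and for astrocyte markers (3352, 1699 and 654 CPM after kainate, 4163 and 1080 CPM in sham). The part of this cell makeup in the glial values of Pla2g7 was not tested, and in these bulk libraries fewer cells of a type cannot be told apart from less RNA per cell.

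**Figure D1:**
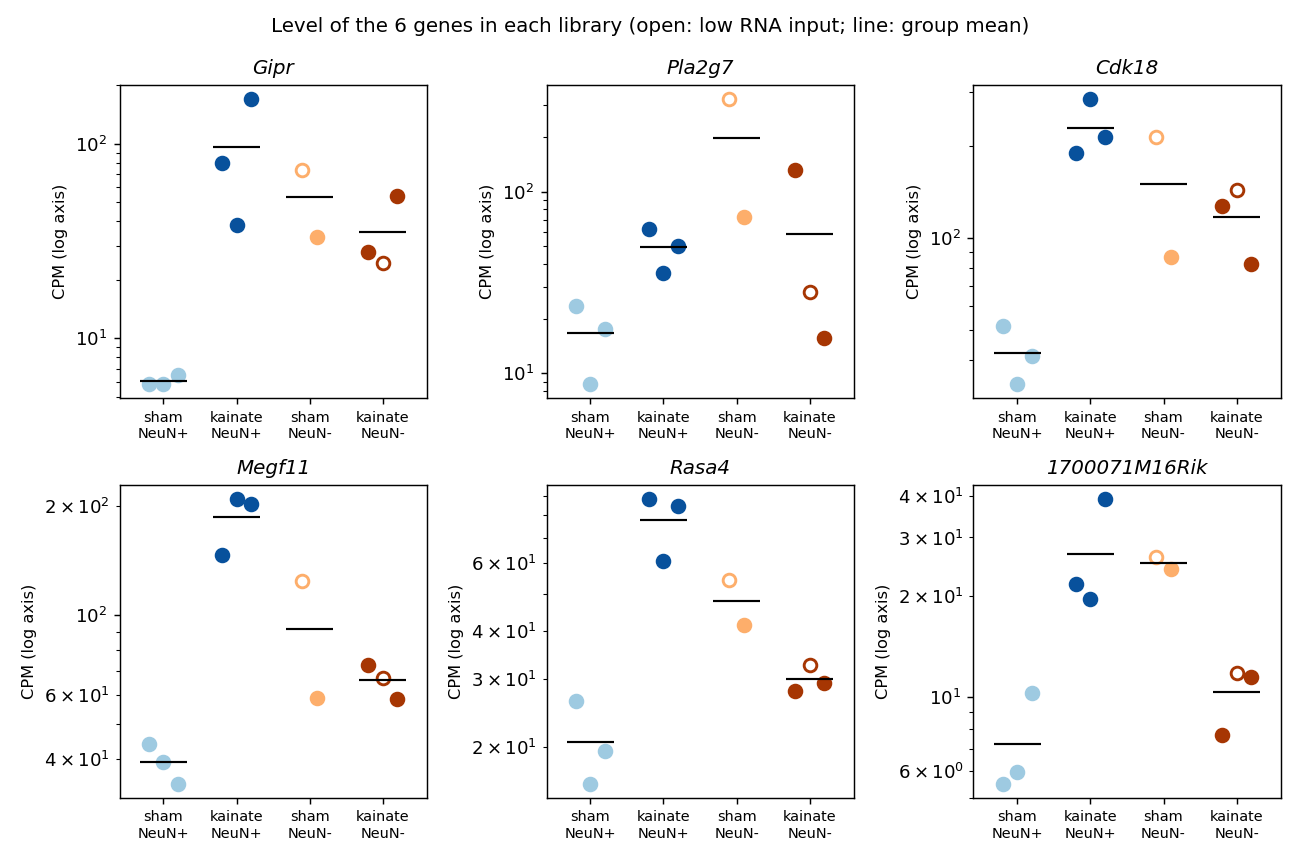
CPM of each gene (vertical log axis) in the 11 libraries by group; points are libraries, open points are the 2 libraries of low RNA input, and lines are group means. For all 6 genes the kainate NeuN+ points lie above the sham NeuN+ points, and for Gipr the sham NeuN+ points lie between 5.84 and 6.51 CPM.

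Between genes, levels were compared per length of annotated exons. In sham neurons Gipr was the lowest of the 6 at 1.74 CPM per kb, below 1700071M16Rik (2.51), Rasa4 (2.75), Megf11 (3.50), Pla2g7 (5.72) and Cdk18 (8.85). In kainate neurons the order was Cdk18 (48.2 CPM per kb), Gipr (27.6), Pla2g7 (17.04), Megf11 (16.7), Rasa4 (10.4) and 1700071M16Rik (9.30). By these group means Gipr moved from the last to the second place, while Cdk18 was first in both groups. The kainate neuron libraries of Gipr differed 4.46-fold, so its place there differs between libraries. In sham glia Pla2g7 led with 67.9 CPM per kb and Cdk18 followed with 31.6, and without the low-input replicate 1 these levels were 24.8 and 18.2.

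In glia, the 6 genes had lower fitted levels after kainate, with log2 fold changes of -1.76 (SE 0.78) for Pla2g7, -1.28 (0.42) for 1700071M16Rik, -0.68 (0.35) for Rasa4, -0.59 (0.56) for Gipr, -0.47 (0.38) for Megf11 and -0.36 (0.44) for Cdk18. The kainate and sham libraries were separate for Rasa4 and 1700071M16Rik, 2 of the 6, and such a separation downward was seen in 3.52% of all genes tested. The other 4 overlapped. The glial difference depended on sham replicate 1, a library of low input that was also highest in glial markers. Without it, the median over the 6 genes went from -0.64 to -0.08, Pla2g7 was at -0.27, and Gipr (0.11), Cdk18 (0.47) and Megf11 (0.20) changed sign. The value of Pla2g7 also depended on kainate replicate 1, without which it was -3.31. Rasa4 and 1700071M16Rik stayed lower after kainate with any 1 library left out, at -0.87 to -0.44 and -1.52 to -1.20.

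The difference between the neuron and glia responses, the quantity named in the rule, was 4.58 (SE 0.77) on the log2 scale for Gipr, 3.33 (1.06) for Pla2g7, 3.17 (0.57) for 1700071M16Rik, 2.80 (0.59) for Cdk18, 2.72 (0.52) for Megf11 and 2.60 (0.47) for Rasa4. Gipr ranked 1 among the 18572 genes ordered by this difference, Pla2g7 6, 1700071M16Rik 7, Cdk18 12, Megf11 13 and Rasa4 20. Without sham NeuN- replicate 1 the difference was 3.87 for Gipr, 1.85 for Pla2g7, 3.08 for 1700071M16Rik, 1.98 for Cdk18, 2.06 for Megf11 and 2.36 for Rasa4. Pla2g7 had the largest SE and moved most, to 4.85 without kainate NeuN- replicate 1 and to 1.52 without both low-input libraries. Leaving out kainate NeuN+ replicate 3 gave 3.87 for Gipr.

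**Figure D2:**
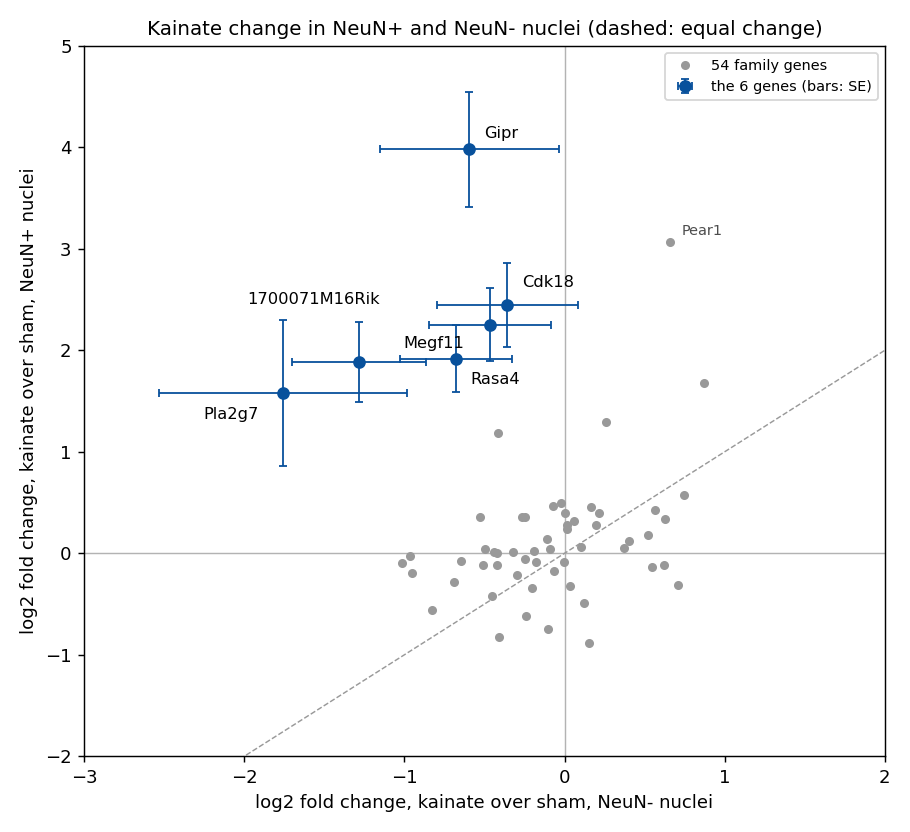
Log2 fold change of kainate over sham in NeuN- nuclei (horizontal) and NeuN+ nuclei (vertical), for the 6 genes with SE bars and for 54 genes of their families. The 6 genes lie between 1.58 and 3.98 on the vertical and between -1.76 and -0.36 on the horizontal axis, above the dashed line of equal change.

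A further description concerns which cell fraction held more of each RNA. In sham tissue, every NeuN- library was above every NeuN+ library for all 6 genes, a pattern of 12.5% of all genes tested. The ratio of the sham means, glia over neurons, was 11.9 for Pla2g7, 8.81 for Gipr, 3.58 for Cdk18, 3.48 for 1700071M16Rik, 2.34 for Megf11 and 2.32 for Rasa4. With sham NeuN- replicate 3 alone, and so without the low-input library, these ratios were 4.34, 5.46, 2.06, 3.34, 1.503 and 2.01 in the same order. After kainate the order was the other way for 4 genes, Cdk18, Megf11, Rasa4 and 1700071M16Rik, with every NeuN+ library above every NeuN- library, as in 14.8% of all genes tested. Their ratios of means, neurons over glia, were 1.95, 2.81, 2.60 and 2.60. The kainate libraries of the fractions overlapped for Gipr and Pla2g7. Both patterns follow in part from the values that chose the genes.

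The comparison of NeuN+ with NeuN- nuclei averaged over both treatments was not used by the rule and was tested. As sham glia had 2 libraries, this contrast has a correlation of -0.111 with that of the rule at equal spread. Pla2g7 was lower in NeuN+ nuclei by a log2 fold change of -1.90 (SE 0.53, edgeR FDR 0.0225), and Gipr by -0.85 (SE 0.38, edgeR FDR 0.153). These were 2 of 6 genes called lower, against 20.4% of all genes tested. Cdk18 (-0.44, FDR 0.338), Megf11 (0.13, FDR 0.733), Rasa4 (0.08, FDR 0.825) and 1700071M16Rik (-0.21, FDR 0.620) were not called in either direction. Cdk18 was called lower in 3 of 19 alternatives, with DESeq2 (-0.49, FDR 0.248), without kainate NeuN- replicate 3 (-0.72, FDR 0.0629) and without sham NeuN- replicate 3 (-0.69, FDR 0.1302). Megf11 was called higher in 1, without sham NeuN- replicate 1 (0.48, FDR 0.184). The median over all genes tested was -0.47 in this contrast, while each test was against 0. The value of Cdk18 lay near that of a typical gene, and 1700071M16Rik, Megf11 and Rasa4 lay above it. Gipr (-0.85, SE 0.38) and Pla2g7 lay below this median, and whether they differ from it was not tested. The call of Pla2g7 held under all 19 alternatives, with FDR from 0.00194 to 0.116. Its log2 fold change was -1.16 without sham NeuN- replicate 1, -1.22 without kainate NeuN- replicate 1, -1.32 without both low-input libraries and -1.29 with the pool as a block. That of Gipr was lost in 6 of 19, with FDR from 0.0163 to 0.344, among them the omission of sham NeuN- replicate 1 (-0.48, FDR 0.344) and of kainate NeuN+ replicate 1 (-0.79, FDR 0.264) or 2 (-0.66, FDR 0.282).

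**Figure D3:**
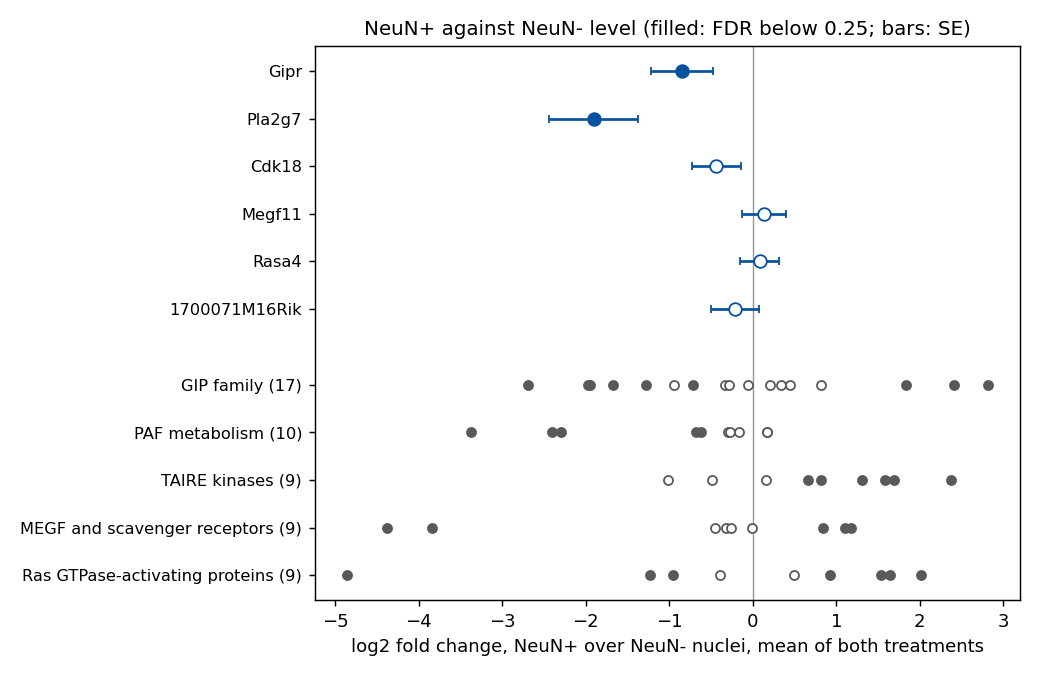
Log2 fold change of NeuN+ over NeuN- nuclei, averaged over treatments, for the 6 genes (SE bars) and the genes of 5 families (number of genes in brackets); filled points had an FDR below 0.25. Pla2g7 (-1.90) and Gipr (-0.85) are the filled points among the 6 genes, and the family genes spread from -4.86 to 2.82.

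Signal of other cell types in the neuron sort was examined beside the neuron values. None of the markers was called for kainate against sham in either fraction. Astrocyte markers summed to 279, 372 and 444 CPM in kainate neurons and to 237, 179 and 242 CPM in sham neurons, a ratio of the means of 1.67 without overlap. The fitted change was above 0 for 5 of the 7 astrocyte markers (median log2 fold change 0.69). Oligodendrocyte markers summed to 194 to 442 CPM after kainate and 238 to 453 CPM in sham, and microglia markers to 68.6 to 75.5 and 46.5 to 68.6 CPM. Markers of dentate granule cells summed to 236 to 400 CPM after kainate and 397 to 654 CPM in sham, with a ratio of means of 0.68, and the fitted change was above 0 for 0 of the 5 (median log2 fold change -1.02). In NeuN- libraries these granule cell markers summed to 179 to 292 CPM after kainate and 137 to 266 CPM in sham. Interneuron markers summed to 731, 469 and 338 CPM after kainate and to 690, 256 and 203 CPM in sham, with overlap and a ratio of means of 1.34, and the fitted change was above 0 for 6 of the 6. Markers of oligodendrocyte precursors summed to 31.8 to 75.2 and 34.4 to 79.9 CPM, of endothelial cells to 2.28 to 14.0 and 3.56 to 14.9 CPM, and of pericytes to 9.11 to 18.4 and 7.25 to 17.3 CPM, kainate first. No marker of any list was at 0 in any NeuN+ library. The part of these shifts in the 6 genes was not tested.

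**Figure D4:**
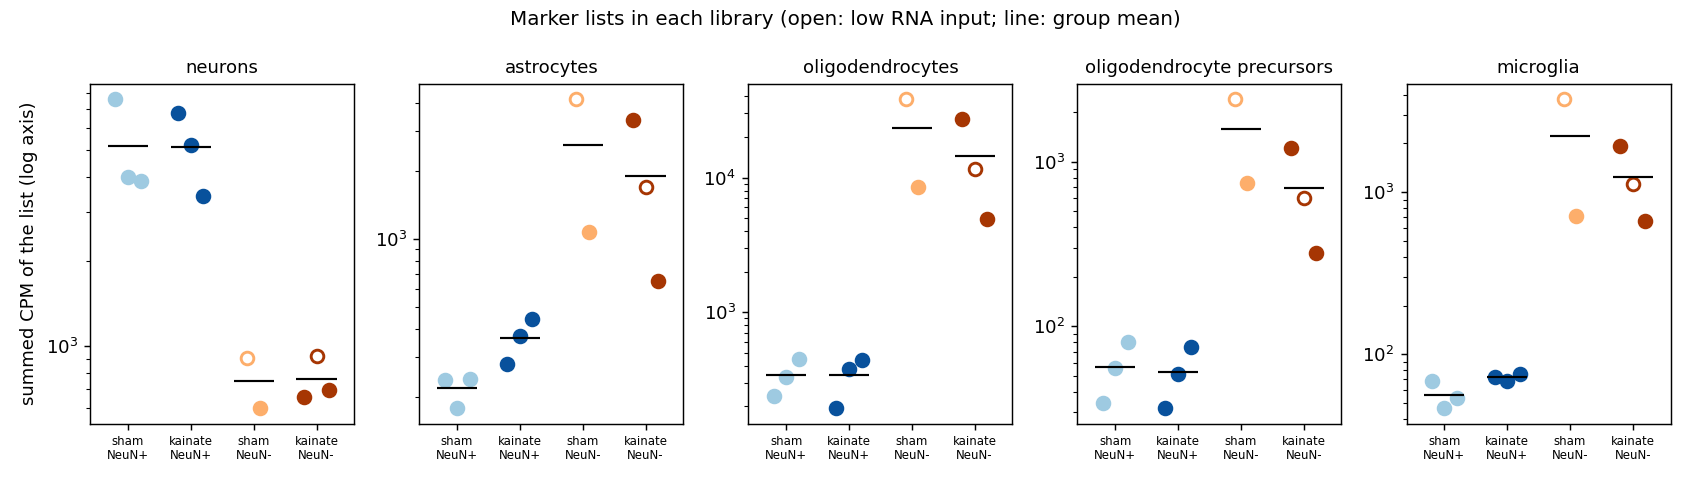
Summed CPM of 5 marker lists (vertical log axis) in the 11 libraries by group; open points are the 2 libraries of low RNA input and lines are group means. The glial lists are lower in NeuN+ than in NeuN- libraries, and oligodendrocyte markers range from 4887 to 38230 CPM among NeuN- libraries.

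Whether the surroundings of the 6 genes moved with them was asked of 22 neighbours, the tested genes that overlap them and the nearest 2 on each side. None was called for kainate against sham in neurons by edgeR, where 0.157% of all genes tested were called higher, and 0 had an unadjusted p below 0.05. DESeq2 called 0 of them too. Their log2 fold changes ran from -0.66 to 1.02 with 11 above 0, and in 0 of 22 was every kainate library above every sham library. At the Gipr locus, Snrpd2 (-0.09), Qpctl (-0.10), Eml2 (-0.05) and Gpr4 (0.16) were near 0. At the Pla2g7 locus the values were 0.16 for Ankrd66, -0.66 for Mep1a, 0.05 for Tdrd6 and -0.33 for Slc25a27. Around Megf11 they were -0.32 for Dis3l, 0.15 for Tipin, 0.14 for Rab11a and -0.10 for Dennd4a. The highest were beside Cdk18, with Gm37120 at 1.02 (SE 0.81) and Lemd1 at 0.93 (SE 0.67), while Mfsd4a was at -0.32, Mir135b at 0.04 and the overlapping Gm29629 at 0.25. Beside Rasa4 the values were 0.72 for the overlapping Gm15701, which has few reads, -0.27 for Upk3bl, -0.38 for Upk3b, -0.07 for Polr2j and 0.52 for Gm43604. Reads were also few for Ankrd66 (SE 1.02), Gm29629 (SE 1.02), Mir135b (SE 1.63) and Upk3bl (SE 0.98), so a change in these could be missed. With the replicate number as a block, Lemd1 was called (log2 fold change 0.89, FDR 0.159). In glia, examined after the neuron values were seen, edgeR called 0 of the 22 neighbours, where 0.101% of all genes tested were called, and 1 had an unadjusted p below 0.05. The log2 fold changes in glia ran from -1.13 to 0.53 with 10 above 0. The lowest was Slc25a27, beside Pla2g7, at 59.9, 47.1 and 26.4 CPM in kainate glia and at 137 and 57.2 CPM in sham glia (log2 fold change -1.13, SE 0.45, edgeR FDR 1.00). The groups overlapped, and without sham NeuN- replicate 1, a low-input library, its log2 fold change was -0.34. Slc25a27 was called in glia with the replicate block, as was Eml2, and without sham NeuN- replicate 3, as was Lemd1, and DESeq2 called 0 of the 22.

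**Figure D5:**
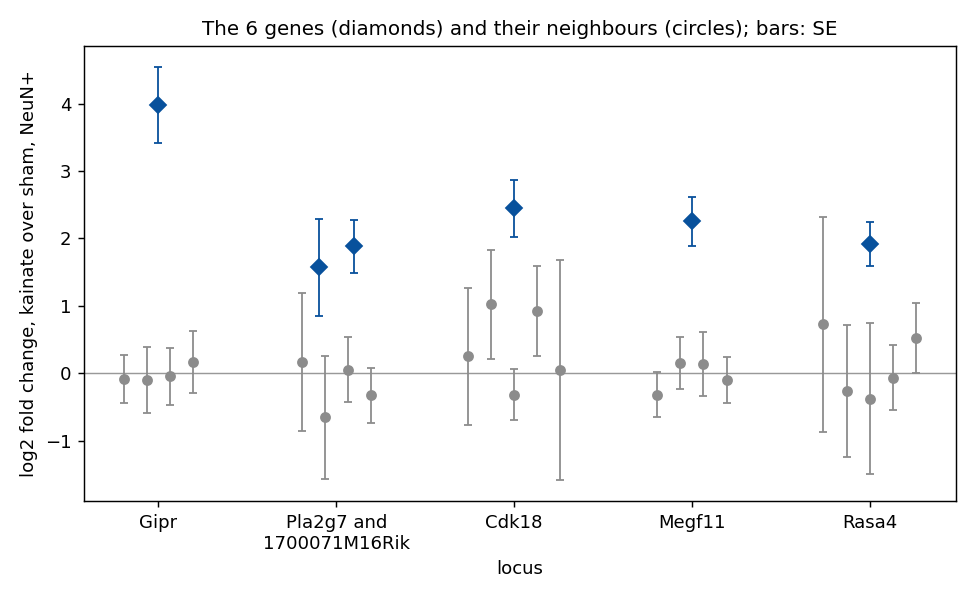
Log2 fold change of kainate over sham in NeuN+ nuclei for the 6 genes (diamonds) and their 22 neighbours (circles) at 5 loci, with SE bars. The neighbours lie between -0.66 and 1.02 and the 6 genes between 1.58 and 3.98.

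Pla2g7 and 1700071M16Rik share exon bases, so their counts were set side by side. The ratio of their counts, Pla2g7 over 1700071M16Rik, was 2.87, 1.83 and 1.28 in kainate neurons and 4.28, 1.47 and 1.71 in sham neurons. In glia it was 17.05, 2.38 and 1.37 after kainate and 12.3 and 2.99 in sham. The ratio was highest in the library of replicate 1 in all 4 groups. In the library of kainate glia replicate 1, Pla2g7 was the highest and 1700071M16Rik the lowest of the 3.

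Other genes of the members' families, 54 in all, gave the context. For kainate against sham in neurons 1 of 54 was called higher and 0 lower, against 0.157% of all genes tested called higher. Of the 54, 3 had an unadjusted p below 0.05, as did 849 of the 40714 genes tested. The gene called was Pear1, a relative of Megf10 and Megf11 with EGF-like repeats known as a platelet receptor. It was at 18.0, 74.8 and 46.1 CPM in kainate neurons and at 1.21, 7.06 and 8.16 CPM in sham neurons (log2 fold change 3.07, SE 0.66, edgeR FDR 0.249). This FDR is just under the threshold, and the call was lost in 9 of 19 alternatives, among them the omission of any sham NeuN+ library, of kainate NeuN+ replicate 2 or 3 or of kainate NeuN- replicate 2 or 3. The FDR ranged from 1.51e-13 with the replicate block to 1.00, while the log2 fold change stayed between 2.54 and 3.46. In glia 0 of 54 were called, with 0 at an unadjusted p below 0.05, where 0.101% of all genes tested were called. For the difference between fractions 0 of 54 were called and 1 had an unadjusted p below 0.05, where 0.00246% of all genes tested were called. DESeq2 called 0 of 54 in both comparisons. Without sham NeuN- replicate 3, which leaves the low-input library as the only sham glia library, edgeR called 6.59% of all genes tested in glia and 7 of the 54, Dpp4, Crhr1, Crhr2, Megf6 and Stab2 higher and Calcrl and Lpcat2 lower.

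In each of the other families, the gene with the smallest p in neurons was not called. For PAF metabolism it was Pafah1b3, a catalytic subunit of an intracellular PAF acetylhydrolase, with a log2 fold change of 1.18 (SE 0.52). For the kinases around Cdk18 it was Cdk14, with -0.75 (SE 0.33). For the Ras GTPase-activating proteins it was Rasal1, with -0.82 (SE 0.41), and for the relatives of Gipr it was Adcyap1r1, the PACAP receptor, with -0.56 (SE 0.47).

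With the replicate number as a block, which matches kainate and sham libraries of the same number where both exist, many more genes were called. They were 5.09% of all genes tested in neurons, 5.79% in glia and 1.94% for the difference. This fit leaves fewer residual degrees of freedom than the main fit. There is no sham NeuN- replicate 2, so kainate NeuN- replicate 2 had no partner, and the glia part rests on replicates 1 and 3. Of the 54 family genes, 7 were then called in neurons. Higher were Pear1 (3.18), Megf6 (1.67), Pafah1b3 (1.15) and Vipr1 (0.59), and lower were Rasal1 (-0.84), Cdk14 (-0.78) and Adcyap1r1 (-0.58). In glia 4 were called, with Megf6 higher (1.12) and Megf10 (-1.08), Adcyap1r1 (-0.92) and the PAF-forming enzyme Lpcat2 (-0.85) lower. For the difference the 3 called were Pear1 (2.76), Pafah1b3 (1.36) and Megf10 (1.04).

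Over both treatments, 32 of the 54 family genes were called between fractions, 16 higher and 16 lower in NeuN+ nuclei, against 37.2% of all genes tested. Among the relatives of Gipr, the class B hormone receptors with the ligands Gip and Gcg and the peptidase Dpp4, 3 of 17 were higher, Vipr1 (2.82), Crhr1 (2.41) and Glp2r (1.84), and 6 were lower, Calcrl (-2.70), Vipr2 (-1.97), Gcgr (-1.95), Sctr (-1.68), Calcr (-1.28) and Pth1r (-0.72). The ligand gene Gip was at most 1.18 CPM in any library. Of 10 genes of PAF metabolism 5 were called and all 5 were lower, as Pla2g7 was: Pla2g4a (-3.38), Lpcat2 (-2.41), the PAF receptor gene Ptafr (-2.29), Pla2g6 (-0.68) and Pla2g15 (-0.62). The list around Cdk18 held 9 genes, namely kinases, cyclins and the Cdk5 activators Cdk5r1 and Cdk5r2. Of these, 6 were higher, Cdk5r2 (2.38), Cdk5r1 (1.69), Cdk14 (1.58), Cdk17 (1.31), Ccny (0.82) and Cdk16 (0.66), whereas Cdk18 itself was not called (-0.44). Relatives of Megf11 split, with Megf6 (1.18) and Megf9 (0.84) among those higher and Megf10 (-4.38) and Stab1 (-3.84) lower. Relatives of Rasa4 did too, with Rasal1 (1.65), Rasal2 (1.53) and Dab2ip (0.93) among those higher and Rasal3 (-4.86), Rasa3 (-1.23) and Nf1 (-0.96) lower.

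Across the 11 libraries, the log2 CPM of the 15 pairs among the 6 genes had Pearson correlations of 0.518 to 0.937 with a median of 0.832. These are descriptions, since the points share the groups that chose the genes. Cdk18 and Megf11 were the most alike pair, and 4 of the 5 pairs with Pla2g7 were below 0.6. Of the 18572 genes with a mean log2 CPM of at least 1, the 6 themselves left out, the most like Gipr were Blnk (0.944), Pipox (0.920) and Ecel1 (0.917), and those most like Cdk18 were Ecel1 (0.962), Lhfp (0.956) and Sorcs1 (0.919). Megf11 was followed by Kcnip3 (0.970), Gpr153 (0.958) and Ecel1 (0.951), and Rasa4 by Adamts6 (0.928), Ecel1 (0.907) and Cd1d1 (0.900). For 1700071M16Rik they were Pipox (0.955), Gm45495 (0.896) and Adamts6 (0.870). Pla2g7 shared none of these, with Shisa8 (0.949), Ctsk (0.933) and Crot (0.931) closest. Ecel1, a neuronal membrane peptidase, stood in the lists of 4 genes, and its own log2 fold change in neurons was 1.92 with -0.21 in glia.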

How the data were processed

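Nuclei of the CLH were sorted by NeuN, and polyadenylated RNA was amplified by SMART-Seq v4 with ThruPlex libraries. The paper describes sequencing pools run either on NextSeq with single reads or on HiSeq with paired reads. The instrument was not part of the fit, and its part in the differences between replicates was not tested. The authors trimmed reads with Trim Galore 0.4.3 and aligned them with Rsubread to mm10. They used featureCounts with the GENCODE M16 genes, counting reads that mapped uniquely to a gene. The deposited values are raw counts, whole numbers with different totals, for 53379 genes in 11 libraries. The strand setting of the counting is not given in the sources used here. Gene positions were taken from GENCODE M21 on GRCm38, and 105 genes without a symbol were left out.

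Genes passing filterByExpr (minimum count 10, minimum total 15) were scaled by TMM and fitted to 4 group means with the quasi-likelihood model of edgeR 4.0.16 (legacy=TRUE) in R 4.3.3, with 7 residual and 6.76 prior degrees of freedom. The common biological coefficient of variation was 0.600. Each p was adjusted over all genes tested by the Benjamini-Hochberg method, and genes were called at FDR below 0.25, the threshold of the study. The study fitted neurons and glia apart, and that fit is an alternative here. SE are the log2 fold change divided by the square root of F. Likeness used log2 CPM with a prior count of 2. DESeq2 1.42.0 was an alternative. The kainate-sham test was also run on simulated counts, drawn independently for each library without the fraction, pool or replicate differences of these data. The contrasts between fractions were not simulated. The outcome is not reported here, and no conclusion is drawn from it.

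The members and the lists of families and markers were chosen with earlier results of these data known. Named are the members, every family gene called in a comparison, otherwise the family gene with the smallest p in neurons, the neighbours, and the 3 genes most like each member. Some family genes that the rule names are not reported here by name. Genes called under the replicate block or without sham NeuN- replicate 3 were named after their values were seen.

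Each label carries a replicate number, but the paper does not say that kainate and sham pools of equal number belong together. Kainate and sham pools held different mice. NeuN+ and NeuN- libraries of equal treatment and number were taken as fractions of one pool. Deviations from the group means correlated for libraries of one number at 0.643, 0.161 and 0.491 between kainate and sham in neurons, at 0.760 and 0.787 in glia, and at 0.240 to 0.668 between fractions of one pool. Pools are of 2 or 4 mice, so p-values for kainate against sham measure the spread between libraries of different pools, and the number of pools limits the precision. The main fit does not match the NeuN+ and NeuN- libraries of one pool, so its p-values between fractions leave this pairing out. The pool block matches them.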

Additional observations from a re-analysis of the deposited data

Results flagged for a closer look

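Rasa4 and 1700071M16Rik were higher in every kainate library than in every sham library of neurons and lower in every kainate library of glia. The kainate response in neurons minus that in glia was 2.60 (SE 0.47) on the log2 scale for Rasa4 and 3.17 (SE 0.57) for 1700071M16Rik. Because the genes were picked on this difference, it was not tested.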

How the results depend on the processing

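In neurons the kainate-sham values of the 6 genes kept their direction under all 19 alternatives, with a median of 2.01 to 2.24. In glia the median of -0.64 ranged from -0.99 to -0.081 with 1 library left out and was 0.12 without both low-input libraries. Single genes in glia ranged, with 1 library left out, from -1.13 to 0.11 for Gipr, -3.31 to -0.27 for Pla2g7, -0.88 to 0.47 for Cdk18 and -0.92 to 0.20 for Megf11. Without both low-input libraries they were 0.31 for Gipr, 0.059 for Pla2g7, 0.30 for Cdk18 and 0.18 for Megf11. The median difference between fractions of 2.99 ranged from 2.21 to 3.28 and was 2.29 without both low-input libraries. Between fractions, the 2 members called ranged from 1 to 3 with 1 library left out, and 1 was called without both low-input libraries, with low RNA input as a covariate and at FDR below 0.05. Cdk18 was at 0.075 without both low-input libraries, and leaving out 1 library gave -0.085 to 0.48 for Megf11 and -0.13 to 0.21 for Rasa4. The 1 family gene called in neurons ranged from 0 to 1 with 1 library left out, and was 0 with DESeq2 size factors, with the input covariate and at FDR below 0.05, and 2 (Pear1 and Megf6) in the separate fit. In glia the family count ranged from 0 to 7. With the replicate block the family counts were 7 in neurons, 4 in glia and 3 for the difference, and the neighbour count was 1 in neurons and 2 in glia. The pool block between fractions called the same 2 members. The cause of these shifts was not tested. The model takes a lone sham glia library to vary like the other groups.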
